A study of Caenorhabditis elegans with 15 samples.

Results

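The genes described here encode enzymes that activate fatty acids and break them down by beta-oxidation in Caenorhabditis elegans. They were chosen by name: every probe set whose annotated symbol began with acs-, cpt-, acdh-, acox-, ech-, maoc-, hacd- or kat- was taken, apart from acdh-1 and ech-6. This gave 69 probe sets, of which 68 named a single gene and together stood for 57 of the 17118 genes on the array; 1 probe set was annotated to several acox genes and is given no gene name. Affymetrix expression arrays were hybridised with RNA from larvae of 5 strains, with 15 arrays for 13 biological samples. The wild type was Bristol N2 (3 populations). The mutants were VC446, carrying alg-1(gk214) on chromosome X (3 populations), RB774, carrying zfp-1(ok554) on chromosome III (2 populations), BB11, carrying rde-4(ne299) on chromosome III (3 populations), and MT3033, carrying lin-35(n745) together with unc-13(e1091) on chromosome I (2 populations). The last strain is called the lin-35 mutant, and the effects of its 2 mutations cannot be told apart. ALG-1 is a microRNA Argonaute, RDE-4 a protein that binds double-stranded RNA and works with Dicer, ZFP-1 a PHD zinc finger protein and LIN-35 the worm retinoblastoma protein. Each mutated gene was represented by 1 allele, and nothing in the labels says how often a strain was outcrossed. All animals, the controls included, hatched without food after hypochlorite treatment of their mothers and then fed on OP50 bacteria for 6 to 7 h. Values are log2 expression values, so a difference of 1 is a doubling of the signal. They compare samples for a gene and not genes with each other. The labels call the samples of a strain biological replicates without saying how they were grown, so p-values measure only the spread between these samples.

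A free fatty acid enters metabolism only after an acyl-CoA synthetase (acs) has joined it to coenzyme A. Long chains cross into the mitochondrion as carnitine esters, made and unmade by carnitine palmitoyltransferases (cpt). Each round of beta-oxidation then uses an acyl-CoA dehydrogenase (acdh) in mitochondria or an acyl-CoA oxidase (acox) in peroxisomes, an enoyl-CoA hydratase (ech, maoc), a 3-hydroxyacyl-CoA dehydrogenase (hacd) and a thiolase (kat). In worms much of this takes place in the intestine, the main fat store. Peroxisomal beta-oxidation also shortens the side chains of ascaroside pheromones, and starvation raises some of these genes through the nuclear receptor NHR-49.

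Several samples stood apart before any gene was considered. On the first principal component, with 31% of the variance, the 2 lin-35 samples lay at -66.6 and -54.4 and all others between -21 and 35.1. Wild-type replicates 1 and 2 lay at 46.1 and 49.3 on the second, with 21.4%, replicate 3 at 13.6, and the mutant samples between -30.9 and 21.9. The 3′ to 5′ log2 difference of the actin control probe sets, which grows as RNA degrades, was 1.94 to 2.96 on the rde-4 arrays and 1.25 to 2.22 on the wild-type arrays. The rde-4 transcript was 2.97 ± 0.18 (SE) lower in its own mutant and the lin-35 transcript 1.61 ± 0.25 lower in its own (limma adjusted p = 6.1e-06 and 0.0015). Differences for alg-1, zfp-1 and unc-13 in their own strains were -1.44, 0.01 and -0.14 and did not pass. RNA came from whole larvae, in which fewer cells of a type and less RNA per cell cannot be told apart. Of 14 intestinal marker genes, all of which were tested, 3 were lower in the alg-1 mutant, 3 in zfp-1 and 4 in rde-4 at an adjusted p under 0.05. Over all genes tested 2.06%, 2.92% and 4.73% were lower in these mutants. As higher 0 markers passed there (limma, with 1, 2 and 1 at an unadjusted p under 0.05). In the lin-35 mutant 0 passed in either direction (limma; 2 higher and 2 lower at an unadjusted p under 0.05). The intestinal factor gene elt-2 differed from wild type by -0.02, -0.37, -0.19 and 0.04 in alg-1, zfp-1, rde-4 and lin-35, and none passed. The log2 of the summed intestinal marker signal was 16.46 to 16.61 in wild type, 16.43 to 16.61 in alg-1, 16.45 in both zfp-1 samples, 15.64 to 16.44 in rde-4 and 16.75 to 16.78 in lin-35. Of 14 markers 0 lay below 5 in all samples. Of the hypodermal, body wall muscle and pharyngeal markers 0 passed in any mutant (limma; 1 higher and 1 lower hypodermal marker in rde-4 and 1 lower pharyngeal marker in lin-35 at an unadjusted p under 0.05), and of the neuronal ones egl-21 was lower in rde-4. The part of intestinal content in the changes below was not tested.

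Of the 57 genes, 39 were expressed highly enough to be tested, meaning a value of at least 5 in at least 2 samples. Signal at or above 5 in all 13 samples was found for 35 of them. The other 4 were acs-11, cpt-4, cpt-5 and acox-1.6. Of the 18 genes not tested, 17 stayed below 5 in every sample, with a highest value of 4.9. They were acdh-2, acdh-5, acdh-6, acdh-8, acs-3, acs-6, acs-10, acs-15, acs-18, acs-23, acs-24, acs-25, cpt-3, cpt-6, ech-1.1, ech-5 and ech-9. The remaining gene, acdh-4, reached 5.50 in alg-1 replicate 2. Thus 15 of 23 acs genes, 4 of 6 cpt genes, 6 of 11 acdh genes, 5 of 5 acox genes and 6 of 9 ech genes with a probe set of their own were measurable in these larvae, as were the single maoc, hacd and kat genes. acs-3, which acts in lipid uptake, and ech-1.1, a close relative of the mitochondrial trifunctional protein gene ech-1.2, were among those near the array floor in all strains. Of the 68 probe sets naming 1 gene, 25 carried the Affymetrix suffix for probes that can match several transcripts, so signal from close relatives is possible for these. Among the genes called against wild type below, acdh-12, acdh-13, acox-3 and acox-1.6 were measured by such probe sets.

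**Figure D1:**
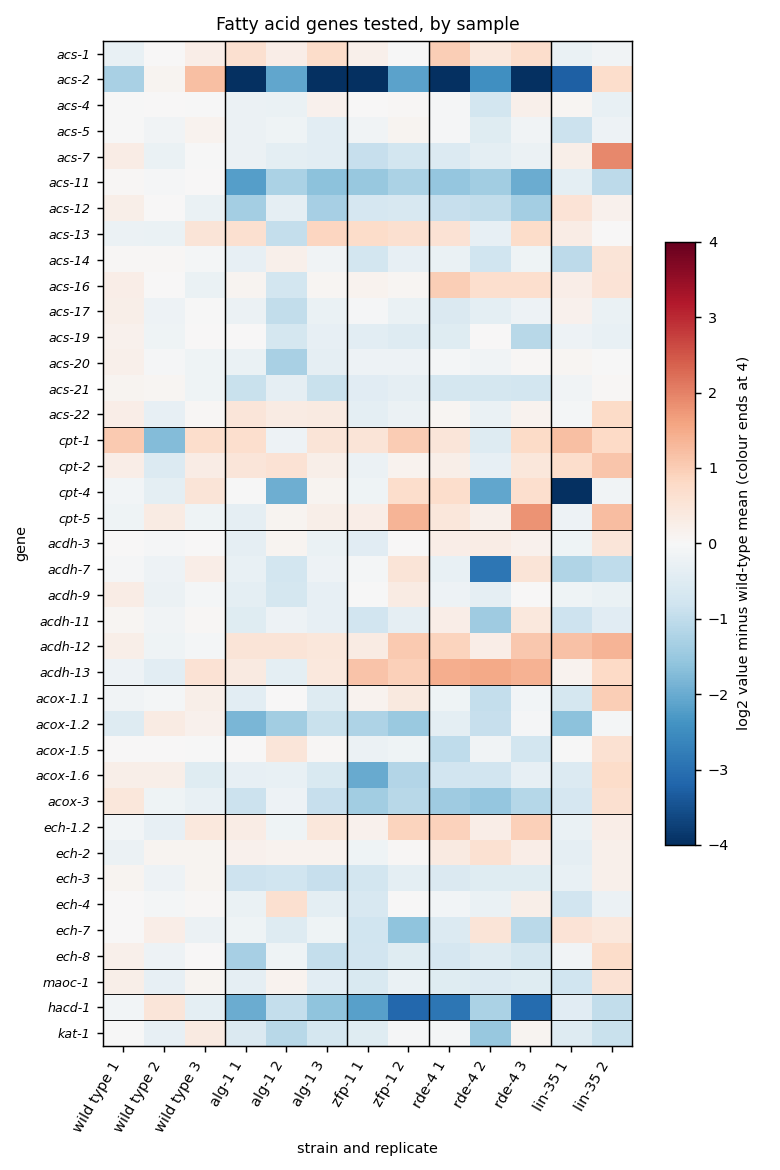
Log2 value minus the wild-type mean for the 39 fatty acid genes tested (rows, grouped by enzyme class) in each of 13 samples (columns, grouped by strain); blue is lower and red higher than wild type, and the colour scale ends at 4. The rows of acs-2, acs-11 and hacd-1 are blue in the alg-1, zfp-1 and rde-4 samples, while most other rows are pale.

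A minority of these genes passed the test in any mutant, and those that passed were mainly lower. Not passing does not show that a gene was unchanged. Of the 39, 29 had a change below 0 in alg-1, 26 in zfp-1, 28 in rde-4 and 21 in lin-35. Over all genes tested the shares below 0 were 47.2%, 50.6%, 46.9% and 48.9%. In the alg-1 mutant 2 of 39 fell, acs-11 and ech-3, and 0 rose (limma, all 5 strains in a single fit, Benjamini-Hochberg adjusted p under 0.05; 1 rose and 10 fell at an unadjusted p under 0.05). Of all 8653 genes tested, 2.06% fell and 1.07% rose in this mutant. The median change of the 39 genes was -0.31, beside 0.02 for all genes. The count of falls was 1 without wild-type replicate 1 or 2, without alg-1 replicate 1 or 3, or without rde-4 replicate 1, and was 5 without alg-1 replicate 2.

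In the zfp-1 mutant 3 fell, acs-11, acox-1.6 and hacd-1, and 0 rose (limma; 2 rose and 8 fell at an unadjusted p under 0.05). The background was 2.92% of genes lower and 1.27% higher. The median of the 39 was -0.21, beside -0.01. The count of falls was 1 without wild-type replicate 1, and 0 without wild-type replicate 2 or without either zfp-1 population. It was also 0 when no filter on dim genes was used. acox-1.6 passed the filter only through wild-type and lin-35 samples. With the filter at 6 it was not tested, and 2 falls remained.

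The rde-4 mutant had the most calls, with 6 falls and 1 rise. acs-2, acs-11, acs-12, acs-21, acox-3 and hacd-1 fell and acdh-13 rose. Across all genes 4.73% fell and 6.38% rose, and the medians were -0.37 for the 39 and 0.04 for all. Subtracting array medians moved the median of all genes to 0.19 and gave 4 rises (acs-1, acs-16, acdh-12 and acdh-13) beside the same 6 falls. Without wild-type replicate 1 or 2 there were 2 or 1 falls and 0 rises, without rde-4 replicate 1, 2 or 3 there were 2, 3 or 2 falls. The rises numbered 2 without wild-type replicate 3 or rde-4 replicate 2, and 3 without alg-1 replicate 2.

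In the lin-35 mutant 1 gene rose, acdh-12, and 0 fell (limma; 3 rose and 2 fell at an unadjusted p under 0.05), against 5.19% of all genes higher and 1.47% lower. The median of the 39 was -0.04, beside 0.01. The rise was lost without wild-type replicate 2 and without either lin-35 population. Without lin-35 replicate 1 acs-7 passed as a rise in its place, without lin-35 replicate 2 cpt-4 passed as a fall, and without rde-4 replicate 2 acdh-7 passed as a fall beside the rise. Germ line markers were higher in this strain: the log2 of the summed signal of 8 markers was 13.55 to 14.07 against 6.33 to 6.90 in wild type. him-3, pgl-1, pgl-3 and syp-1 reached 5 in the 2 lin-35 samples alone and so passed the filter only through the group where they are high, and glh-4, mex-5 and nos-2 stayed below 5 in all samples. glh-1, at or above 5 in 12 of 13 samples, rose by 7.05 ± 0.44 (limma adjusted p = 3.2e-07). Their part in the change of acdh-12 was not tested. With wild-type replicate 3 as a lone control, assumed to vary like the other groups, 0 of the 39 genes passed in any mutant. Of all 8653 genes 10 then fell in alg-1, 16 in zfp-1 and 24 in rde-4, and 258 rose in lin-35. The 4 comparisons share the wild-type samples, so calls of a gene in several mutants are not independent.

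**Figure D2:**
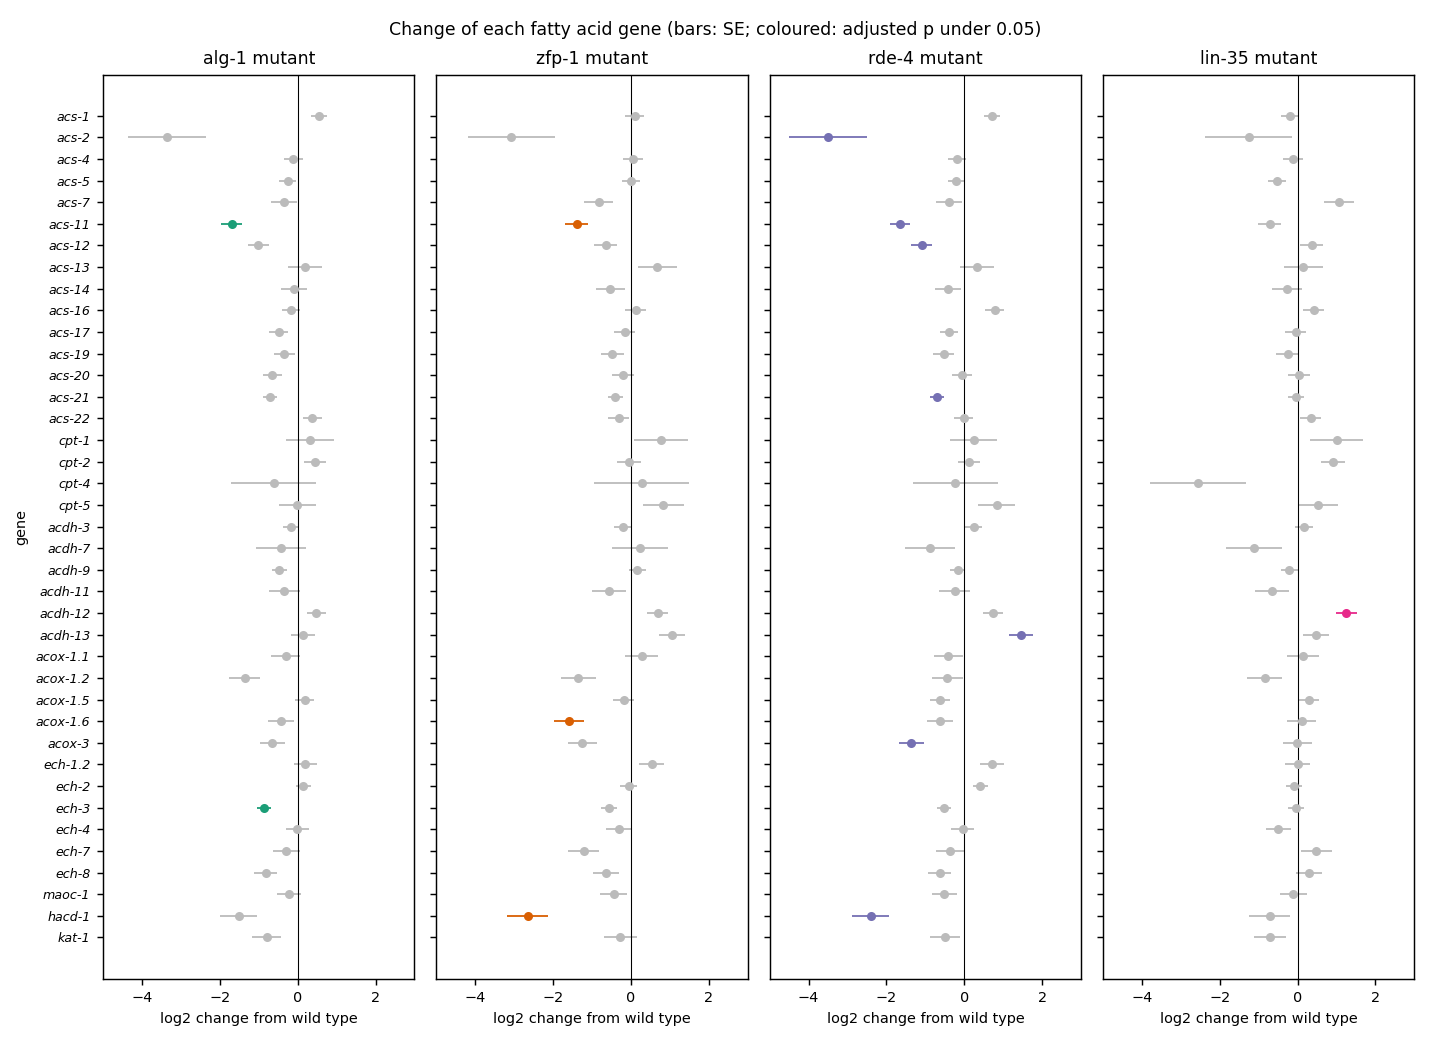
Log2 change from wild type (horizontal axis) with limma's standard error for each of the 39 genes tested (vertical axis), 1 panel per mutant; coloured points passed an adjusted p of 0.05 and grey points did not. acs-2 lies furthest to the left in the alg-1, zfp-1 and rde-4 panels, with a standard error of 1 or more.

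Among the acyl-CoA synthetases, acs-2 had the widest span from sample to sample. It encodes a mitochondrial acyl-CoA synthetase known as a fasting-induced target of NHR-49. Wild-type values were 7.76, 9.16 and 10.25 in replicates 1, 2 and 3. The alg-1 samples read 5.05, 6.99 and 5.04, the zfp-1 samples 5.07 and 6.91, and the rde-4 samples 5.02, 6.60 and 5.03. All samples of these 3 mutants thus lay below all wild-type samples, and in each of them replicate 2 was the highest. The lin-35 samples read 5.81 and 9.77, again with replicate 2 higher, and overlapped wild type. The change was -3.51 ± 1.00 (SE) in rde-4, 11.4-fold lower (limma adjusted p = 0.045). It was -3.36 ± 1.00 in alg-1 and -3.07 ± 1.11 in zfp-1, which did not pass (limma adjusted p = 0.098 and 0.138), and -1.26 ± 1.11 in lin-35. A second acs-2 probe set changed by -2.56 in rde-4, -2.67 in alg-1, -2.51 in zfp-1 and -1.08 in lin-35. It lay below 5 in 2 of 3 rde-4 samples and 2 of 3 alg-1 samples. On the tested probe set, rde-4 replicates 1 and 3 read 5.02 and 5.03, close to the detection value of 5. The size of the fold is therefore uncertain. The call in rde-4 was kept in 10 of 23 alternative settings.

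acs-11, another synthetase, differed in the same strains with much less scatter. Wild type lay at 6.42, 6.31 and 6.40. The alg-1 samples lay at 4.18, 5.09 and 4.74, the zfp-1 samples at 4.86 and 5.09, and the rde-4 samples at 4.81, 4.97 and 4.39. No sample of these mutants came near the wild-type range, and several were under the detection value of 5. The fall was 1.70 ± 0.26 (SE) on the log2 scale in alg-1 and 1.40 ± 0.29 in zfp-1 (limma adjusted p = 0.0072 and 0.022), with 2 of 3 and 1 of 2 samples below 5. In rde-4 all 3 samples lay below 5, so acs-11 was lower by at least 2.59-fold (limma adjusted p = 0.0047). The lin-35 samples at 5.98 and 5.33 lay between, with a change of -0.72 ± 0.29 that did not pass (limma adjusted p = 0.187). The zfp-1 call was kept in 17 of 23 alternative settings. The alg-1 and rde-4 calls were each kept in 22 of 23. The exception was wild-type replicate 3 alone as control, where the changes were -1.73 ± 0.40 and -1.67 ± 0.40 with larger standard errors (limma adjusted p = 0.179 and 0.171).

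acs-12 and acs-21 were lower in smaller steps. acs-12 read 10.64, 10.42 and 10.14 in wild type and 9.49, 9.42 and 9.04 in rde-4, a fall of 1.09 ± 0.27 (limma adjusted p = 0.030). acs-21 read 7.00, 6.97 and 6.72 in wild type and 6.21, 6.19 and 6.16 in rde-4, a fall of 0.71 ± 0.18 (limma adjusted p = 0.030). Both sets of samples were fully separated. In alg-1 both genes lay lower in replicates 1 and 3 than in replicate 2: acs-12 was at 9.03, 10.05 and 9.08 and acs-21 at 6.01, 6.54 and 6.02. Their alg-1 changes of -1.01 ± 0.27 and -0.71 ± 0.18 missed the threshold (limma adjusted p = 0.072 and 0.058), and both passed when alg-1 replicate 2 was left out.

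acs-7 encodes a peroxisomal synthetase that acts in the making of some ascarosides. It read 7.39, 6.81 and 7.05 in wild type, 6.17 and 6.33 in zfp-1, and 7.30 and 8.99 in lin-35. The high lin-35 sample was replicate 2, and the change of 1.07 ± 0.38 did not pass (limma adjusted p = 0.136). acs-1, which supplies branched-chain acyl-CoA, was at 11.50, 10.95 and 11.22 in rde-4 against 10.21, 10.55 and 10.79 in wild type. The groups did not overlap, but the change of 0.71 ± 0.21 missed the threshold (limma adjusted p = 0.054). acs-16 changed by 0.78 ± 0.24 in rde-4 (limma adjusted p = 0.057). acs-20 and acs-22, relatives of fatty acid transport proteins that help to form the cuticle barrier, changed by -0.65 to 0.03 and by -0.31 to 0.38 over the 4 mutants, with no call. The acs-20 probe sets disagreed: the second changed by -0.02 in alg-1, where the tested one gave -0.65, by 0.30 in zfp-1 against -0.20, and by 0.70 in lin-35 against 0.03. For the 15 acs genes tested the median change was -0.34 in alg-1, -0.31 in zfp-1, -0.39 in rde-4 and -0.05 in lin-35.

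**Figure D3:**
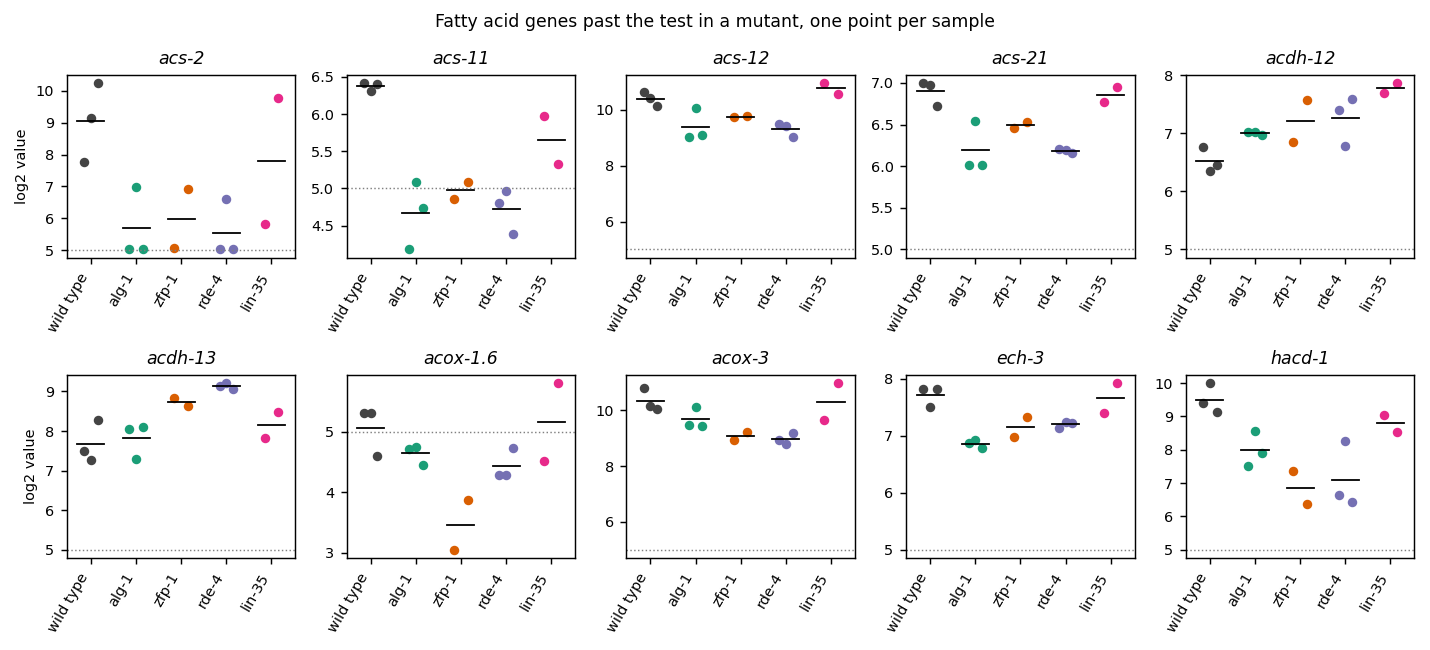
Log2 values of the 10 fatty acid genes that passed the test in at least 1 mutant, with 1 point per biological sample, a black line at each strain's mean and a dotted line at the detection value of 5. acs-11 separates wild type (6.31 to 6.42) from the alg-1, zfp-1 and rde-4 samples (4.18 to 5.09); vertical axes differ between panels and do not start at 0.

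No carnitine palmitoyltransferase passed the test, and the spread within strains was wide for 2 of the 4. cpt-1, the outer-membrane enzyme of the shuttle, was at 8.73 and 8.40 in wild-type replicates 1 and 3 but at 5.95 in replicate 2. That sample had the largest actin 3′ to 5′ difference of the wild type (2.22). In rde-4 replicate 2, with a larger difference (2.96), cpt-1 read 7.16. The part of RNA quality in the low value was not tested. All mutant samples of cpt-1 lay between 7.16 and 8.90, and the changes of 0.24 to 1.00 had standard errors of 0.61 or 0.69. cpt-2, the inner-membrane enzyme, was at 11.50 and 11.91 in lin-35 against 11.05, 10.24 and 11.10 in wild type, a change of 0.91 ± 0.31 (limma adjusted p = 0.118). cpt-4, a relative of cpt-1, showed the widest span among the fatty acid genes tested. Its lin-35 samples read 4.49 and 9.36, its rde-4 samples 10.19, 7.42 and 10.15, and its alg-1 samples 9.46, 7.54 and 9.61, around a wild-type mean of 9.49 ± 0.47 (SD, n = 3) with 9.09 as the lowest sample. A single sample was low in each of these strains, and the second probe set of the gene was low in the same samples, at 3.36 in lin-35 replicate 1, 6.90 in rde-4 replicate 2 and 7.65 in alg-1 replicate 2. The 3′ to 5′ differences of these 3 samples, in that order, were 0.81, 2.96 and 0.89 for actin and 0.32, 1.11 and 0.38 for GAPDH, and the part of RNA quality in the low values was not tested. The lin-35 change of -2.56 ± 1.23 did not pass (limma adjusted p = 0.271). cpt-5 entered the test only through zfp-1 replicate 2 at 5.11 and rde-4 replicate 3 at 5.54.

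**Figure D4:**
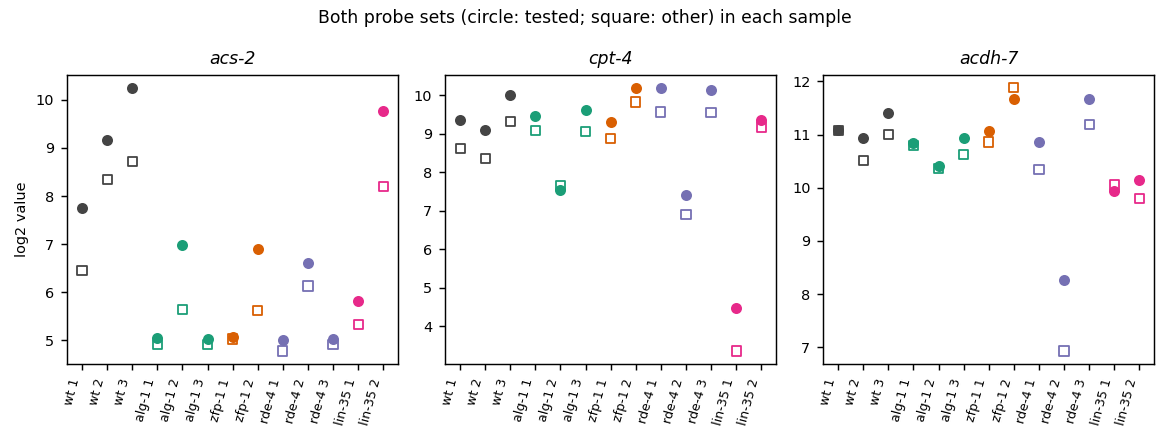
Log2 values of both probe sets (circle for the tested one, square for the other) of acs-2, cpt-4 and acdh-7 in each of 13 samples, coloured by strain. Both probe sets of cpt-4 are low in lin-35 replicate 1 (4.49 and 3.36), and both of acdh-7 in rde-4 replicate 2 (8.26 and 6.93).

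The acyl-CoA dehydrogenases gave the calls upwards. acdh-13 was at 7.49, 7.27 and 8.27 in wild type and at 9.14, 9.21 and 9.06 in rde-4. The rde-4 samples were tight and all above wild type, and the rise was 1.46 ± 0.30 (SE), or 2.75-fold (limma adjusted p = 0.014). The zfp-1 samples at 8.83 and 8.63 also lay above wild type, with a change of 1.05 ± 0.33 (limma adjusted p = 0.096). acdh-12, a very long chain acyl-CoA dehydrogenase, was at 6.76, 6.36 and 6.45 in wild type and at 7.69 and 7.87 in lin-35, a rise of 1.25 ± 0.27 or 2.38-fold (limma adjusted p = 0.016). In the other mutants every sample of acdh-12 also lay above every wild-type sample, with changes of 0.48 in alg-1, 0.69 in zfp-1 and 0.74 in rde-4, none of which passed. acdh-7, a medium chain enzyme, lay at 10.94 to 11.41 in wild type and at 9.94 and 10.14 in lin-35 (change -1.11 ± 0.72, limma adjusted p = 0.430). Its rde-4 samples read 10.86, 8.26 and 11.67. The low one, replicate 2, had the largest actin 3′ to 5′ difference of all samples, at 2.96, and the part of RNA quality in this value was not tested. acdh-11 changed by -0.25 to -0.65 and acdh-3 and acdh-9 by less than 0.5 in either direction, with no call.

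Among the peroxisomal acyl-CoA oxidases, acox-3 was lower in rde-4. It read 10.78, 10.16 and 10.04 in wild type and 8.92, 8.79 and 9.20 in rde-4, a fall of 1.36 ± 0.33 (limma adjusted p = 0.028). The zfp-1 samples at 8.93 and 9.23 lay in the same range without passing (change -1.25 ± 0.37, limma adjusted p = 0.086). The lin-35 samples, at 9.65 and 10.97, spanned the wild-type range. acox-1.6 stood close to the detection value, at 5.30, 5.30 and 4.59 in wild type and 3.05 and 3.88 in zfp-1. The zfp-1 mutant was thus lower by at least 1.05-fold (limma adjusted p = 0.040), and no fold beyond this bound can be given. The gene reached 5 only in wild-type replicates 1 and 2 and in lin-35 replicate 2 (5.80). It therefore passed the filter only through groups where it is high. acox-1.2 was at 6.83, 7.66 and 7.51 in wild type and lower in all alg-1 samples, at 5.52, 5.96 and 6.45, and both zfp-1 samples, at 6.12 and 5.85. Its changes of -1.36 ± 0.40 and -1.35 ± 0.45 missed the threshold (limma adjusted p = 0.098 and 0.110). acox-1.1, the main oxidase of ascaroside side-chain shortening, changed by -0.41 to 0.27, and acox-1.5 by -0.63 to 0.29, with no call. The probe set shared by several acox genes read 8.94 to 9.20 in wild type, 7.49 and 7.76 in zfp-1 and 6.42 and 9.41 in lin-35; it was not part of the fit. maoc-1, the peroxisomal hydratase of the same pathway, changed by -0.51 to -0.11, and its lin-35 samples read 9.88 and 11.27.

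Of the later steps, hacd-1 moved most. This 3-hydroxyacyl-CoA dehydrogenase gene was at 9.51 ± 0.45 (SD, n = 3) in wild type, with 9.13 as the lowest sample. It stood 6.27-fold lower in zfp-1, at 7.35 and 6.36 (change -2.65 ± 0.53, SE, with a limma adjusted p = 0.020). It was at 6.63, 8.25 and 6.42 in rde-4, 5.31-fold lower, with a change of -2.41 ± 0.47 (limma adjusted p = 0.013). The alg-1 samples at 7.52, 8.56 and 7.90 and the lin-35 samples at 9.05 and 8.53 also lay below all wild-type samples. Their changes of -1.52 ± 0.47 and -0.72 ± 0.53 did not pass (limma adjusted p = 0.118 and 0.493). The rde-4 call was kept in 19 of 23 alternative settings and the zfp-1 call in 17.

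The enoyl-CoA hydratase gene ech-3 was at 7.82, 7.50 and 7.82 in wild type and at 6.88, 6.92 and 6.78 in alg-1, a fall of 0.86 ± 0.18 (limma adjusted p = 0.032). The groups were well separated, and the zfp-1 and rde-4 samples lay between them, at 6.98 to 7.33, with changes of -0.56 and -0.52 that did not pass. ech-7 was at 8.99 and 8.16 in zfp-1 against 9.53 to 10.04 in wild type (change -1.21 ± 0.40, limma adjusted p = 0.106). ech-8 changed by -0.82, -0.64 and -0.63 in alg-1, zfp-1 and rde-4 and by 0.30 in lin-35, with no call. ech-1.2, the trifunctional protein alpha subunit, changed by 0.71 ± 0.30 in rde-4 (limma adjusted p = 0.139) and by 0.53 or less in the others. kat-1, the mitochondrial thiolase that ends the cycle, was at 11.39 to 12.08 in wild type and at 10.60 to 11.15 in alg-1. Its change of -0.80 ± 0.38 did not pass (limma adjusted p = 0.294), and the other mutants gave -0.71 to -0.27.

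The mutants were also compared with each other. Between alg-1, zfp-1 and rde-4 0 of the 39 genes passed in any of the 3 pairs (limma; 5, 5 and 4 at an unadjusted p under 0.05 for alg-1 against zfp-1, alg-1 against rde-4 and zfp-1 against rde-4). In these pairs 0.705%, 1.02% and 1.36% of all genes passed. Against the lin-35 mutant alg-1 differed in 3 genes, zfp-1 in 3 and rde-4 in 4, where 6.95%, 6.28% and 11.4% of all genes did. acs-7 was lower than in lin-35 by 1.42 ± 0.38 in alg-1, 1.90 ± 0.42 in zfp-1 and 1.46 ± 0.38 in rde-4 (limma adjusted p = 0.046, 0.018 and 0.029). These differences rest on lin-35 samples at 7.30 and 8.99. acs-12 was lower by 1.37 ± 0.30 in alg-1 and 1.45 ± 0.30 in rde-4 (limma adjusted p = 0.018 and 0.0097). ech-3 was lower by 0.81 in alg-1, ech-7 was lower by 1.69 in zfp-1, and acox-3 was lower by 1.34 in rde-4, while acs-1 was higher by 0.91 in rde-4. acox-1.6, below 5 in both zfp-1 samples, was lower there by at least 1.12-fold. This gene passed the filter only through wild-type and lin-35 samples. For acs-2 the differences from lin-35 were -2.10 ± 1.11, -1.80 ± 1.22 and -2.25 ± 1.11, and none passed. Over 23 alternative settings the call was kept in 4 for acs-7 in alg-1, 8 for ech-7, 11 for acox-3 and 13 for ech-3, and acox-1.6 kept it in 17 of the 22 settings that tested it. The other 5 calls were each kept in 18 to 22. The 10 calls became 6, 16 or 5 without alg-1 replicate 1, 2 or 3, 5 or 6 without zfp-1 replicate 1 or 2, 4 or 6 without rde-4 replicate 1 or 3, and 6 without lin-35 replicate 2.

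The samples of a strain were not alike in these genes. The distance between the highest and lowest sample exceeded 1 for 3 of the 39 genes in wild type, 8 in alg-1, 2 in zfp-1, 11 in rde-4 and 10 in lin-35. The median distance was 0.50, 0.55, 0.30, 0.58 and 0.52 in that order, beside 0.53, 0.46, 0.19, 0.56 and 0.34 for all genes tested. The 2 lin-35 samples differed in direction: the median of the 39 genes was 0.22 below the wild-type mean in replicate 1 and 0.21 above it in replicate 2. In rde-4 the medians were -0.17, -0.48 and 0.03 in replicates 1, 2 and 3. The 2 arrays of lin-35 replicate 2 differed with an SD of 0.39 over the 39 genes, and those of zfp-1 replicate 2 with an SD of 0.23.

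Genes that work beside these enzymes but do not carry their names were read from a list. Of 42 names for partners in mitochondria and peroxisomes, 40 had a probe set and 36 were tested. Over all genes tested 2.06%, 2.92%, 4.73% and 1.47% passed as lower in alg-1, zfp-1, rde-4 and lin-35. As higher 1.07%, 1.27%, 6.38% and 5.19% passed. The same shares stand beside each list below, and the partner counts in zfp-1 and rde-4 were near them. In alg-1 2 partners passed. pmp-5, an ABC transporter gene, fell by 5.12 ± 1.06 (limma adjusted p = 0.028). Its wild-type samples read 7.78, 11.08 and 10.62. Its alg-1 samples read 5.55, 3.67 and 4.89, with 2 of 3 below 5, so the size of this fall is uncertain. hphd-1, an enzyme gene of the propionate shunt, fell by 4.71 ± 0.68 (limma adjusted p = 0.0056). In zfp-1 hphd-1 alone fell, by 3.04 ± 0.76. In rde-4 2 fell, the dienoyl-CoA reductase gene decr-1.1 by 1.17 ± 0.32 and the peroxisomal dehydrogenase gene dhs-28, which acts after maoc-1, by 1.12 ± 0.33 (limma adjusted p = 0.041 and 0.049). In lin-35 0 passed (limma; 1 higher and 4 lower at an unadjusted p under 0.05), and in no mutant did a partner pass as higher (1, 3, 4 and 1 at an unadjusted p under 0.05 in alg-1, zfp-1, rde-4 and lin-35). The thiolase gene daf-22, the last step of ascaroside side-chain shortening, changed by -0.43 to 0.49 without a call. Of 3 genes read for fatty acid synthesis, mlcd-1 encodes malonyl-CoA decarboxylase, which is not a synthesis enzyme. It fell by 0.80 in zfp-1 and by 0.79 in rde-4. The synthesis genes pod-2 and fasn-1 had means of 9.38 and 12.48 in wild type. Their means were 9.86 and 12.81 in alg-1 and 10.53 and 12.99 in zfp-1. In rde-4 they were 9.94 and 13.23, and in lin-35 10.58 and 12.64. In each mutant 0 of the 3 passed as higher (limma, with 0, 1, 0 and 1 in alg-1, zfp-1, rde-4 and lin-35 at an unadjusted p under 0.05). Of 11 regulator genes, all tested, nhr-68, a nuclear receptor gene that controls the propionate shunt, fell by 4.33 in alg-1 and fell by 3.83 in zfp-1, and nhr-80, a partner of NHR-49 in fat metabolism, fell by 1.07 ± 0.24 in rde-4 (limma adjusted p = 0.020). In alg-1 and zfp-1 nhr-80 changed by -0.94 and -0.77 without passing. nhr-49 itself lay between 11.20 and 12.02 in all samples, with changes of -0.18 to 0.27 and no call.

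By the RefSeq gene order, 3 pairs of these genes are direct neighbours. acox-1.1 and acox-1.2 lie side by side on chromosome I, and in alg-1 their changes were -0.31 and -1.36. acdh-12 and maoc-1 are neighbours on chromosome II, where acdh-12 rose in lin-35 while maoc-1 changed by -0.11. ech-8 and ech-9 adjoin on chromosome IV, and ech-8 was at or above 7.28 in all samples while ech-9 stayed below 5. The 57 genes are spread over all 6 chromosomes, with 10 on I, 12 on II, 8 on III, 10 on IV, 13 on V and 4 on X.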

How the data were processed

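Biotin-labelled cRNA from total RNA of whole larvae was hybridised to Affymetrix arrays. The authors deposited log2 values, made with GCRMA per the submitters' processing notes; its version and options are not given there. Arrays have no read depth, and their number limits the precision. Control probe sets and those annotated to several genes or to none were set aside. RefSeq supplied gene names and order. Where a gene had several probe sets, the one with the highest mean was tested. Repeat arrays of a biological sample were averaged. Genes at 5 or more in at least 2 of 13 samples entered 1 model with limma 3.58.1 (lmFit, eBayes; R 4.3.3), two-sided, with Benjamini-Hochberg adjustment over 8653 genes within each contrast; the code was tested on simulated data. Folds against a group wholly below 5 were computed against 5 and are lower bounds. The genes, lists and settings were chosen with earlier results of these data known. Named are all genes that passed, the 3 largest changes per mutant that did not, the tested cpt, acox, maoc, hacd and kat genes, 9 genes fixed by name, and called partners. Values of acs-20, acdh-3, acdh-9, acdh-11, ech-8, daf-22, pod-2, fasn-1, nhr-49 and elt-2 fall outside that rule and were picked with values known. acdh-10 was not analysed here. Alternatives covered scaling, the filter, probe sets, arrays, the samples fitted, a replicate block and each sample left out. Figures were drawn with matplotlib 3.10.9.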

Additional observations from a re-analysis of the deposited data

How the results depend on the processing

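None of the 23 calls reversed its direction under the settings tried. Over these calls (13 against wild type and 10 between mutants), 173 of 228 values under other settings and 194 of 299 with a sample left out stayed past the threshold. Against wild type, the rde-4 calls of acs-21, acs-12, acox-3 and acdh-13 were kept in 14, 15, 16 and 19 of 23 settings. The ech-3 call in alg-1 was kept in 15 and the acdh-12 call in lin-35 in 19. The acox-1.6 call in zfp-1 was kept in 12 settings and lost in 10. When wild-type replicate 3 alone served as control, the falls in alg-1, zfp-1 and rde-4 and the rises in rde-4 and lin-35 were all 0; over all genes that setting passed 10, 16 and 24 falls in alg-1, zfp-1 and rde-4 (178, 253 and 409 otherwise) and 258 rises in lin-35 (449 otherwise), with a control of 1 sample. Without a filter on dim genes, falls numbered 0 in zfp-1 and 2 in rde-4, and differences between mutants 5; more genes were then tested. With only the groups compared in the fit, falls numbered 1 in alg-1, 1 in zfp-1 and 2 in rde-4 and rises 0 in rde-4; fewer samples then set the spread. Subtracting array medians gave 4 rises in rde-4, moved the median of all genes to 0.11 in zfp-1, 0.19 in rde-4 and -0.15 in lin-35 (-0.12 there under quantile normalisation), and gave 995 rises and 334 falls over all genes in rde-4, 346 and 220 in lin-35 and 148 and 200 in zfp-1, against 552 and 409, 449 and 127, and 110 and 253. Samples sharing a replicate number did not deviate together throughout (correlations -0.27 to 0.38 over 23 pairs). The replicate number as a block gave 4 falls in alg-1, 1 rise in zfp-1 and 2 rises in rde-4, and the cause was not tested. Leaving out each sample in turn gave 1 to 5 falls in alg-1, 0 to 1 rises and 0 to 4 falls in zfp-1, 0 to 3 rises and 1 to 6 falls in rde-4, 0 to 1 rises and 0 to 1 falls in lin-35, and 4 to 16 differences between mutants; rises in alg-1 stayed at 0. Low values near 5 limit what can be said of acs-2, acs-11, acox-1.6, cpt-5 and the partner gene pmp-5.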
